A study of Mus musculus with 4 samples.

Results

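Endothelial leukocyte adhesion molecules are the proteins of the vessel wall to which blood leukocytes bind before they leave the circulation. The 7 members described here, *Vcam1*, *Icam1*, *Icam2*, *Selp*, *Sele*, *Alcam* and *Madcam1*, were chosen by name from the 27998 genes of the count tables, and all 7 were in the tables. They were read in spinal cord (SC) cells of mice with experimental autoimmune encephalomyelitis (EAE), an inflammatory disease of the central nervous system that is induced by immunization with a myelin oligodendrocyte glycoprotein (MOG) peptide in complete Freund's adjuvant (CFA). Unique molecular identifiers (UMIs), which count each captured RNA molecule once, were summed over the cells of a class, and levels are given as UMIs per 1000000 UMIs of the same cells (CPM).

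There were 4 single-cell libraries, 1 for each condition. The mIgG1 and Ang2 Ab libraries came from wild-type C57Bl/6JOlaHsd mice aged 15 weeks that received an isotype control antibody or an antibody against angiopoietin 2 (Ang2, gene *Angpt2*; "A2 antibody" in the labels) from the day of EAE induction, and they were collected at 14 days post immunization (dpi). The Ctrl and EC-Ang2 libraries came from C57Bl/6JCrl mice aged 12 to 14 weeks at 12 dpi. Ctrl mice were single transgenic littermates, and EC-Ang2 mice carried *VE-cadherin-tTA* and *Tet-OS-Ang2*, a pair of transgenes that drives Ang2 in endothelial cells (ECs) once doxycycline is withdrawn at birth. All mice of the 4 libraries had EAE and received pertussis toxin, at a smaller dose in the transgenic pair, so no library shows the SC without inflammation. From each SC suspension, equal numbers of CD45+ leukocytes and CD31+ ECs were sorted. The number of mice behind a library is not stated. A single library stands for each condition, which leaves no replicate to test a condition against. The intervals given for such differences are 95% intervals and cover counting error only.

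Leukocytes leave the blood in steps. P-selectin (*Selp*) and E-selectin (*Sele*) slow the cell to a roll, and the immunoglobulin family receptors VCAM-1 (*Vcam1*, bound by the integrin VLA-4), ICAM-1 (*Icam1*) and ICAM-2 (*Icam2*, both bound by LFA-1) then hold it until it passes the wall. ALCAM (*Alcam*) is a further member of that family, which binds CD6 on T cells, and MAdCAM-1 (*Madcam1*) is the receptor of gut vessels for the integrin α4β7. *Vcam1*, *Icam1* and *Sele* are switched on by inflammatory cytokines through the transcription factor NF-kB, *Icam2* is made by resting endothelium, and P-selectin is also held ready in the Weibel-Palade bodies of ECs. In the central nervous system, leukocytes cross mainly at postcapillary venules.

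The sequences just upstream of the start sites are shown because *Icam1* and *Sele* had similar patterns over the vessels (below) and are textbook targets of NF-kB. RefSeq promoter windows (GRCm38.p6, 250 bases before the start to 50 after) were at hand for *Icam1*, *Selp*, *Sele*, *Alcam* and *Madcam1*, and were searched on both strands for GGANNTTCC and for GGG followed by CC after any 5 bases, a pair of loose forms of the NF-kB site that can overlap. The stretches lie at chr9:21015767-21015849 for *Icam1*, chr1:164048069-164048118 for *Sele*, chr1:164115229-164115263 for *Selp* and chr10:79664455-79664518 for *Madcam1*, all on the plus strand. They are printed 5′ to 3′ with every match to either motif in capitals.
Icam1: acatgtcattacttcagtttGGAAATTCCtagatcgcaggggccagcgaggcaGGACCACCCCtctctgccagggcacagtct
Sele: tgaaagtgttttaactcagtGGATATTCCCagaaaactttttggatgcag
Selp: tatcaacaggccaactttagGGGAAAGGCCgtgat
Madcam1: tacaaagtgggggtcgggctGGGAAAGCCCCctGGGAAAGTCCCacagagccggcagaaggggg

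GGANNTTCC began at position −153 in *Icam1*, −145 in *Sele* and −70 in *Madcam1*, counted from the RefSeq start, and it was in 963 of 27025 mouse promoter windows (3.56%). The looser GGG and CC form is far commoner, in 45.4% of windows, and was the form found in *Selp*, at −15. TGANTCA, the AP-1 site, was at −139 in *Selp* and −73 in *Sele* and in 6.87% of windows. None of these letters was in the *Alcam* window. The matches describe the letters and do not show binding.

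Barcodes with at least 2000 UMIs numbered 7012, 7498, 6643 and 5427 in the mIgG1, Ang2 Ab, Ctrl and EC-Ang2 libraries, with medians of 4841 to 6882 UMIs. ECs numbered 2609, 2954, 3106 and 2094. They were taken by *Cldn5* and *Cdh5*, a minimum of the endothelial marker list, its ratio to the immune and myeloid lists, and the lack of other classes' genes. Their endothelial marker list stood at 17143 to 22776 CPM, against 311 to 440 CPM in myeloid cells. The platelet, lymphatic and myeloid lists were at 31.1 to 42.9, 1.03 to 6.59 and 640 to 1367 CPM in ECs. The endothelial and myeloid lists helped to set the classes, so their levels describe the classes and do not check them. Pairs of libraries shared 51 to 77 barcodes, close to the number that random draws would share. From the make-up of empty droplets, RNA free in the suspension was estimated to give 4.24 to 6.32% of the UMIs of ECs. *Angpt2* in ECs was at 49.9 CPM with mIgG1 and 314 CPM with Ang2 Ab, and at 56.9 CPM in Ctrl against 1084 CPM in EC-Ang2, so the transgenic library matched its label, and the library of the antibody-treated mice also held 6.29-fold more *Angpt2* than its control.

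Within ECs, vessel gates were set on marker UMIs alone, with no member used. Cells with 2 or more *Bmx* or *Gkn3* UMIs stand for arterial ECs, and cells with 5 or more *Ackr1* UMIs for venules, whose wall carries this atypical chemokine receptor. Cells with 2 or more *Slc38a5* UMIs and fewer than 5 *Ackr1* UMIs make up the *Slc38a5*+ gate, set to stand for the capillary to venous side short of the *Ackr1*+ cells. *Ackr1*+ cells could hold *Slc38a5* too, and did, at 478 to 1059.9 CPM against 556 to 1055 CPM in the *Slc38a5*+ gate, so that gate stands for *Slc38a5* cells low in *Ackr1* and not for all cells with *Slc38a5*. Cells below all 3 thresholds are called ungated, and 1.32 to 4.68% of ECs, which met the *Bmx*/*Gkn3* gate and another, were kept out of the gates. The *Ackr1*+ gate held 28.4, 18.8, 11.04 and 27.5% of ECs in the mIgG1, Ang2 Ab, Ctrl and EC-Ang2 libraries, the *Slc38a5*+ gate 27.9, 30.7, 35.2 and 14.0%, and the *Bmx*/*Gkn3*+ gate 7.05 to 8.64%. The arterial marker list, which includes *Bmx* and *Gkn3*, reached 1437 to 2622 CPM in *Bmx*/*Gkn3*+ cells and at most 402 in the other gates. Among its other genes, *Sema3g* was at 183 to 217 CPM in *Bmx*/*Gkn3*+ cells and at most 78.2 CPM in the other gates. *Vegfc* was at 58.2 to 178 CPM and at most 24.5 CPM. The venous list reached 5075 to 6195 CPM in *Ackr1*+ cells and at most 763 in the other gates, but *Ackr1*, which sets the gate, gave 4241 to 5454 CPM of it. Among its other genes, *Nr2f2* was at 79.0 to 124 CPM in *Ackr1*+ cells and at most 36.5 CPM in the other gates. *Vwf* (561 to 901 CPM) overlapped the *Bmx*/*Gkn3*+ range (246 to 633 CPM). *Plvap* went the other way, with a mean of 1.12 CPM against 12.7 CPM in *Bmx*/*Gkn3*+ cells. The capillary-venous list, which includes *Slc38a5*, did not single out the *Slc38a5*+ gate. It was at 5579 to 7570 CPM there and at 9970 to 19896 CPM in *Ackr1*+ cells. A capillary list reached 1075 to 3008 CPM in ungated and 867 to 2565 CPM in *Slc38a5*+ cells. In *Bmx*/*Gkn3*+ and *Ackr1*+ cells it was at 548 to 1346 and 345 to 664 CPM. The *Ackr1*+ cells also held more UMIs (medians 6281.5 to 10759, against 2969.5 to 6201 in the other gates). Differences between gates were tested with edgeR's quasi-likelihood test over the 4 libraries, with library as a term and Benjamini-Hochberg adjustment over all genes tested. The libraries stand for 4 conditions, so the ± values over them hold both biological and technical spread.

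Between *Ackr1*+ and *Bmx*/*Gkn3*+ ECs, all 6 members that passed the filter on low counts differed, where 37.4% of 11141 genes did. *Vcam1*, *Icam1*, *Selp*, *Sele* and *Alcam* were higher in the *Ackr1*+ cells and *Icam2* was lower. *Madcam1* did not pass the filter. *Selp* and *Sele* passed it through the gates where they were high. In *Bmx*/*Gkn3*+ cells of a library they had at most 19 and 10 UMIs. The size of their differences from that gate thus rests on counts near the floor. The plot of levels by vessel gate shows each library.

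**Figure D1:**
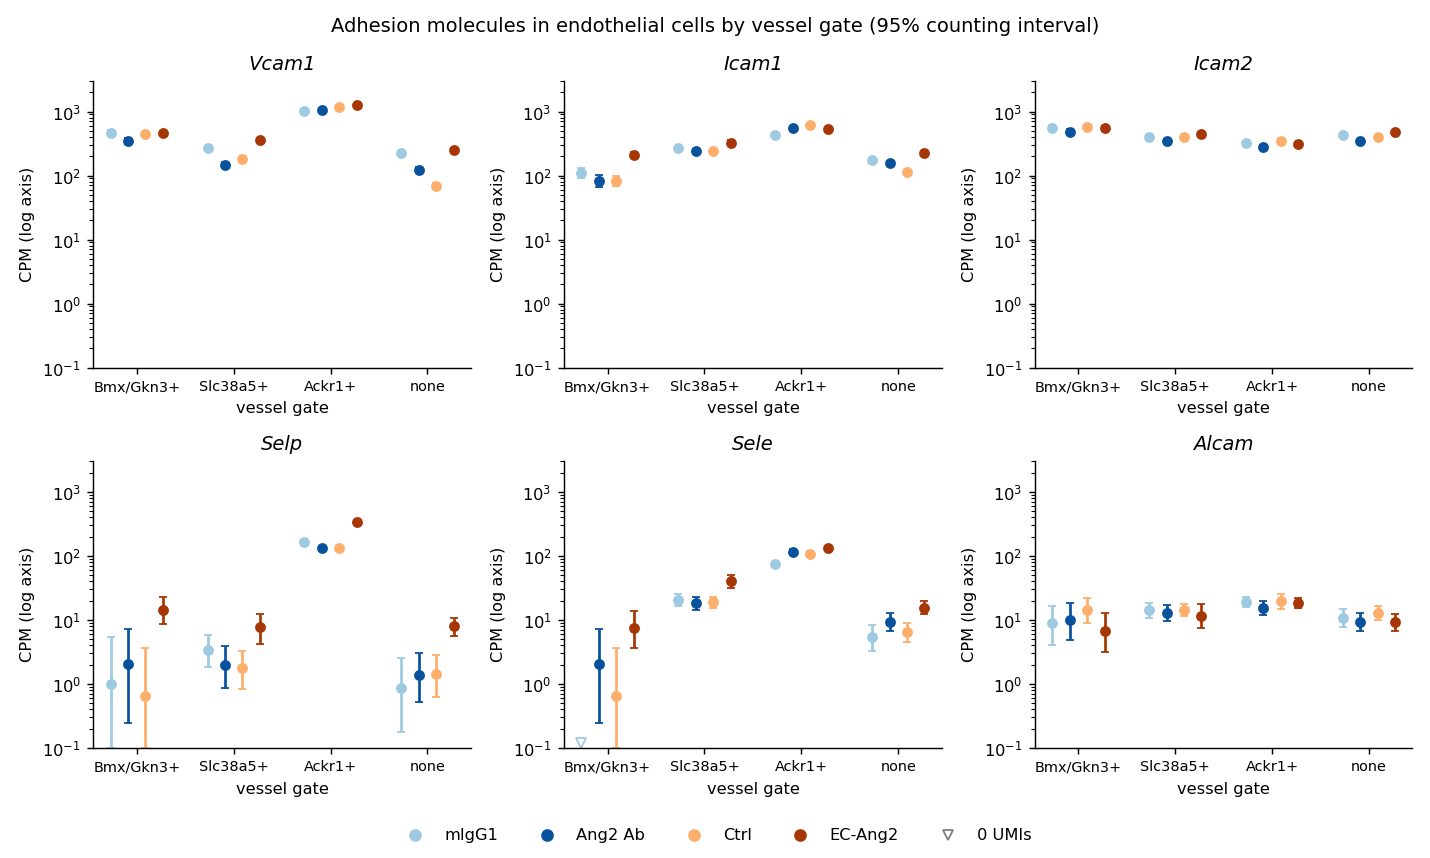
Levels of 6 members in the vessel gates of SC ECs, in CPM on a log axis, with 1 point a library and bars for the 95% counting interval; a triangle marks 0 UMIs. *Selp* is at 130.1 to 336 CPM in *Ackr1*+ cells and at most 14.4 CPM in the other gates, while *Icam2* is highest in *Bmx*/*Gkn3*+ cells.

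*Selp* (ENSMUSG00000026580, chr1:164115264-164150026, plus strand, GRCm38) had the largest difference between *Ackr1*+ and *Slc38a5*+ cells of the 6 members tested. In *Ackr1*+ ECs it was at 165, 131, 130.1 and 336 CPM in the mIgG1, Ang2 Ab, Ctrl and EC-Ang2 libraries. In *Slc38a5*+ ECs only 13, 8, 10 and 15 *Selp* UMIs were counted in all, and in *Bmx*/*Gkn3*+ ECs 1, 2, 1 and 19. In *Slc38a5*+ cells 3.38, 2.00, 1.76 and 7.61 CPM were measured and 1.18, 0.830, 1.42 and 7.24 CPM estimated from free RNA. The measured level there was near the estimate in Ctrl and EC-Ang2 and above it, on few UMIs, in mIgG1 and Ang2 Ab. In *Bmx*/*Gkn3*+ cells 0.976, 2.02, 0.647 and 14.4 CPM were measured and 1.46, 1.05, 1.75 and 6.89 CPM estimated. *Selp* was therefore detected well above free RNA mainly in *Ackr1*+ cells, whose range did not overlap those of these gates. The log2 difference was 5.54 ± 0.22 (SE) from *Bmx*/*Gkn3*+ cells (adjusted p = 3.80e-14, higher in 4 of 4 libraries) and 5.86 ± 0.17 from *Slc38a5*+ cells (adjusted p = 3.29e-15, 4 of 4). *Slc38a5*+ and *Bmx*/*Gkn3*+ cells did not differ beyond the spread (−0.32 ± 0.48, adjusted p = 0.713), and the sign turned without the EC-Ang2 library (1.07).

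*Sele* (ENSMUSG00000026582, chr1:164048234-164057677, plus strand), its neighbour on chromosome 1, fell off in steps. Its level was 73.8, 116, 109 and 132 CPM in *Ackr1*+ cells in the same library order, and 20.5, 18.2, 19.0 and 40.1 CPM in *Slc38a5*+ cells. *Bmx*/*Gkn3*+ cells held 0, 2, 1 and 10 *Sele* UMIs, and ungated cells were at 5.40 to 15.5 CPM. The ranges of *Ackr1*+, *Slc38a5*+ and ungated cells did not overlap. *Sele* was higher in *Slc38a5*+ than in *Bmx*/*Gkn3*+ cells by 3.21 ± 0.42 on the log2 scale (adjusted p = 5.17e-06) and in *Ackr1*+ than in *Slc38a5*+ cells by 2.27 ± 0.14 (adjusted p = 1.83e-10), each in 4 of 4 libraries. *Sele* in *Slc38a5*+ cells was above the free RNA level of 0.231 to 1.23 CPM in all 4 libraries.

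*Icam1* (ENSMUSG00000037405, chr9:21015985-21028817, plus strand) followed the order of *Sele* with smaller steps. It was at 434, 557, 611 and 543 CPM in *Ackr1*+ cells and at 267, 242, 244 and 328 CPM in *Slc38a5*+ cells. *Bmx*/*Gkn3*+ cells were at 110.3, 82.6, 82.8 and 210.1 CPM. *Ackr1*+ cells were above *Slc38a5*+ cells by 1.08 ± 0.15 (adjusted p = 8.58e-06) and *Slc38a5*+ cells above *Bmx*/*Gkn3*+ cells by 1.24 ± 0.18 (adjusted p = 2.01e-05) on the log2 scale, and neither pair of groups overlapped. Ungated cells, at 112 to 224 CPM, overlapped the *Bmx*/*Gkn3*+ range.

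*Vcam1* (ENSMUSG00000027962, chr3:116109949-116129688, minus strand) had another order, with the arterial gate second. *Ackr1*+ cells were at 1003, 1052, 1181 and 1247 CPM, a mean of 1121 ± 113 (SD, n = 4). *Bmx*/*Gkn3*+ cells were at 470.5, 346, 444 and 459 CPM and *Slc38a5*+ cells at 270.0, 148, 179 and 359.5 CPM. *Vcam1* was thus lower in *Slc38a5*+ than in *Bmx*/*Gkn3*+ cells in 4 of 4 libraries, by 0.86 ± 0.21 on the log2 scale (adjusted p = 0.0042), while *Icam1* and *Sele* differed the other way between these gates. The ranges of the 2 gates overlap, and without library as a term the adjusted p was 0.13. *Ackr1*+ cells were 1.55 ± 0.20 above *Bmx*/*Gkn3*+ cells (adjusted p = 2.71e-06) and 2.40 ± 0.20 above *Slc38a5*+ cells (adjusted p = 1.78e-08). Ungated cells ranged from 69.5 CPM in Ctrl to 251 CPM in EC-Ang2 and overlapped the *Slc38a5*+ range.

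*Icam2* (ENSMUSG00000001029, chr11:106377656-106388075, minus strand), the constitutive ligand of LFA-1, ran the opposite way over a narrow range. *Bmx*/*Gkn3*+ cells were at 561, 487, 584 and 549 CPM, *Slc38a5*+ cells at 405, 349, 401 and 442 CPM and *Ackr1*+ cells at 326, 282, 347 and 309 CPM. Each library kept this order, although the ranges of ungated cells (341 to 475 CPM) and *Slc38a5*+ cells lay over each other. *Icam2* was lower in *Ackr1*+ than in *Bmx*/*Gkn3*+ cells (log2 −0.64 ± 0.061, adjusted p = 2.72e-08) and lower in *Slc38a5*+ than in *Bmx*/*Gkn3*+ cells (−0.39 ± 0.061, adjusted p = 5.90e-05). From *Slc38a5*+ to *Ackr1*+ cells it was lower again by 0.26 ± 0.059 on the log2 scale (adjusted p = 0.00231), a call that was lost without library as a term. The order was not particular to *Icam2*. The endothelial marker list was at 24244 to 27097 CPM in *Bmx*/*Gkn3*+, 21069.5 to 23283 CPM in *Slc38a5*+ and 12437 to 15764 CPM in *Ackr1*+ cells. *Pecam1* was at 678 to 747 CPM in *Bmx*/*Gkn3*+ and 496 to 573 CPM in *Ackr1*+ cells.

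*Alcam* (ENSMUSG00000022636, chr16:52248996-52454074, minus strand) was low throughout ECs, with 901 UMIs in all. It was at 19.1, 15.3, 19.4 and 18.5 CPM in *Ackr1*+ cells and at 8.79, 10.1, 14.2 and 6.80 CPM in *Bmx*/*Gkn3*+ cells, a difference of 1.01 ± 0.18 on the log2 scale (adjusted p = 0.000121). That call was lost when every cell was thinned to 2000 UMIs (0.59, adjusted p = 0.2). *Slc38a5*+ cells, at 11.7 to 14.3 CPM, lay between and did not differ from *Bmx*/*Gkn3*+ cells beyond the spread (0.46 ± 0.20, adjusted p = 0.129). *Madcam1* (ENSMUSG00000020310, chr10:79664559-79668537, plus strand) had 4, 1, 2 and 3 UMIs in the ECs of the 4 libraries, 7 of these 10 in *Ackr1*+ cells, and nothing could be compared for it.

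In *Slc38a5*+ against *Bmx*/*Gkn3*+ cells, 4 of the 6 members passed the test, where 21.6% of genes did, and in *Ackr1*+ against *Slc38a5*+ cells all 6 did, where 26.7% of genes did. Both counts include *Selp* and *Sele*, which passed the filter on low counts through the gates where they were high. Across the 16 sums of 4 gates and 4 libraries, the levels of *Selp* and *Sele* went together (Pearson's r of log2(CPM + 10) 0.90), as did those of *Vcam1* and *Selp* (0.83), while *Icam2* had values of −0.23 to −0.80 with the other members. The gates of 1 library share its depth and free RNA, so these values only describe the pattern. By the same measure over 10026 genes, the gene most like *Sele* was *Nr2f2*, a transcription factor of venous ECs, at 0.98, followed by *Ifitm1* (0.98) and *Cd14* (0.97). *Nr2f2* (0.97) was also next to *Actn1* (0.97) and ahead of *Sele* (0.96) for *Icam1*. The genes most like *Selp* were *C1s1* (0.98), *Lhx6* and *Eef1g* (both 0.97), those most like *Vcam1* were *Myof* (0.95), *Pabpc1* and *Pdia5* (both 0.92), those most like *Icam2* were *Mfap3* (0.94), *Plpp1* (0.93) and *Ccny* (0.92), and those most like *Alcam* were *Alas1* (0.87), *Cenpf* (0.87) and *Kif23* (0.86), the last pair being genes of dividing cells. The cycling marker list was at 147 to 363 CPM in *Ackr1*+ cells and at 76 to 166 CPM in the other gates, and its part in the *Alcam* levels was not tested.

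Outside the endothelium the members divided. Mural cells, the pericytes and smooth muscle cells of the wall, held 31, 23, 18 and 18 barcodes and 296980 UMIs in all, among which were 4 *Vcam1*, 8 *Icam1*, 6 *Icam2*, 1 *Selp*, 0 *Sele* and 0 *Alcam* UMIs. Free RNA was put at 16.4 to 21.2% of mural UMIs, by counting every UMI of the endothelial marker list there as free RNA. It alone would have given 10.1, 12.8, 15.5, 2.36, 0.483 and 0.949 of them, so no member was detected in mural cells above that background. All 6 tested members were higher in ECs than in mural cells, where 21.3% of 12844 genes differed and the median gene was 0.50 higher on the log2 scale. The call for *Alcam* (adjusted p = 0.0205) was lost in 6 other settings, at adjusted p of 0.0522 to 0.0874. With 0 UMIs in mural cells, *Sele* and *Alcam* passed the filter through the other classes alone, and *Selp*, with 1 UMI there, through the classes where it was high. The counts of *Vcam1*, *Icam1* and *Icam2* in mural cells were below the free RNA estimate too. The sizes of all these differences thus rest on mural counts near the floor. In the mural cells of a library, 3 UMIs would be 28.9 to 57.6 CPM, above the *Alcam* level of ECs (12.1 to 15.2 CPM). *Vcam1* was 42.2-fold higher over the summed counts [16.5–155], *Icam1* 11.8-fold [6.01–27.4] and *Icam2* 18.9-fold [8.69–51.5]. For *Sele*, with no UMI in mural cells, the level in ECs was at least 4.95-fold higher than 3 UMIs over all mural cells would give, and for *Alcam* at least 1.38-fold.

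**Figure D2:**
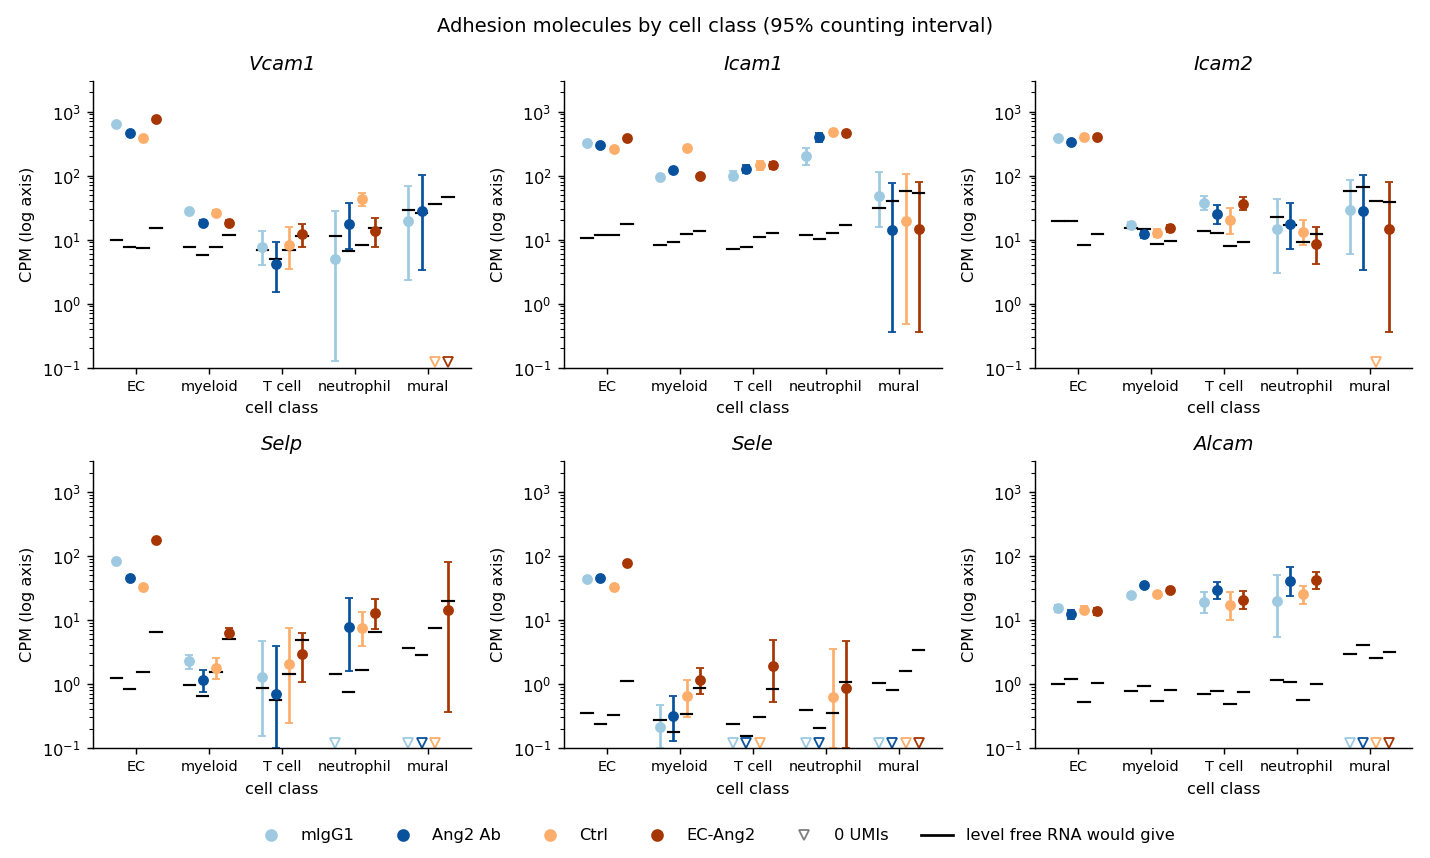
Levels of 6 members in the cell classes of the SC suspensions, in CPM on a log axis, with 1 point a library; short bars mark the level that free RNA alone would give. *Icam1* has overlapping ranges in neutrophils (202 to 487 CPM) and ECs (258 to 389 CPM). *Alcam* is higher in myeloid cells, T cells and neutrophils than in ECs. The mural points, each of at most 5 UMIs, lie below the free RNA level except *Icam1* in mIgG1 and *Vcam1* in Ang2 Ab. These are at 48.2 against 30.9 CPM and 27.9 against 25.7 CPM.

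In myeloid cells (1898 to 2970 a library), *Vcam1* was at 27.7, 18.2, 26.3 and 18.4 CPM, above the 5.79 to 11.8 CPM of free RNA. *Icam2* (12.1 to 17.2 CPM) and *Selp* (1.13 to 6.16 CPM) lay near the free RNA level. In T cells *Icam2* was at 20.3 to 37.8 CPM, above the 7.79 to 13.5 CPM of free RNA. *Icam1* was at 94.2, 122, 267 and 98.2 CPM in myeloid cells, at 202, 393, 487 and 457 CPM in neutrophils and at 99.4, 127, 146 and 145 CPM in T cells, so it was not particular to ECs, against the name of the group. ECs were above myeloid cells for *Icam1* in 3 of 4 libraries (log2 0.73 ± 0.21, adjusted p = 0.00439), Ctrl being the exception with 258 CPM in ECs. *Alcam* was higher in myeloid cells, at 24.4, 34.4, 24.9 and 29.2 CPM against 15.2, 12.1, 14.5 and 13.7 CPM in ECs, and the groups did not overlap (ECs against myeloid cells −1.52 ± 0.16, adjusted p = 2.91e-07). T cells (17.2 to 29.1 CPM) and neutrophils (19.7 to 41.7 CPM) were above the *Alcam* range of ECs too. *Vcam1*, *Icam2*, *Selp* and *Sele* were higher in ECs by 4.08 ± 0.20, 4.24 ± 0.16, 4.39 ± 0.17 and 6.01 ± 0.27 on the log2 scale. *Sele* had only 6, 7, 10 and 20 UMIs in myeloid cells. These gave 0.213 to 1.14 CPM, beside 0.179 to 0.859 CPM estimated from free RNA. The size of its difference thus rests on counts near the floor, and those of *Icam2* and *Selp* on levels near free RNA. All 6 members differed between these classes, as did 70.8% of all genes.

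Over all ECs, *Selp* and *Vcam1* were lower with Ang2 blockade than with mIgG1, and both selectins, *Vcam1* and *Icam1* were higher in EC-Ang2 than in Ctrl. *Vcam1* was at 630.0, 457, 379.7 and 776 CPM in the mIgG1, Ang2 Ab, Ctrl and EC-Ang2 libraries, from 6241 to 13411 UMIs. *Selp* was at 84.4, 45.3, 32.2 and 177 CPM and *Sele* at 43.1, 44.7, 32.4 and 77.8 CPM. EC-Ang2 had the highest level of all 3, and Ctrl the lowest. *Icam1* was at 320.2, 303, 258 and 389 CPM, *Icam2* at 385, 334, 405 and 396 CPM and *Alcam* at 12.1 to 15.2 CPM.

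Ang2 Ab against mIgG1, *Selp* was 1.86-fold lower (log2 −0.90 [−1.04 to −0.76]) and *Vcam1* 1.38-fold lower (−0.46 [−0.51 to −0.42]). *Alcam* was at −0.33 [−0.62 to −0.04], *Icam2* at −0.21, *Icam1* at −0.08 and *Sele* at 0.05 [−0.10 to 0.21], an interval that holds 0. *Selp* was the 1 member of 6 past 1.5-fold, where 7.28% of genes were. EC-Ang2 against Ctrl, *Selp* was 5.48-fold higher (log2 2.46 [2.32 to 2.59]), *Sele* 2.40-fold (1.27 [1.12 to 1.41]), *Vcam1* 2.04-fold (1.03 [0.99 to 1.07]) and *Icam1* 1.51-fold (0.59 [0.54 to 0.65]). These are 4 of 6 members past 1.5-fold, where 15.8% of genes were, and *Icam1* lay at the threshold and fell below it with 4 other selections of cells. *Icam2* (−0.03) and *Alcam* (−0.09) hardly moved, each with 0 in its interval.

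The control libraries differed as well. *Selp* was 2.62-fold and *Vcam1* 1.66-fold higher in mIgG1 than in Ctrl, and *Sele*, *Icam1*, *Alcam* and *Icam2* were at 0.41, 0.31, 0.07 and −0.07 on the log2 scale, where 13.5% of genes were past 1.5-fold. Each of these libraries is also the control of one of the other comparisons, and strain, age, genotype, antibody, day and toxin dose differ between them. The *Vcam1* difference between the controls (log2 0.73) was thus larger than that with Ang2 Ab and smaller than that in EC-Ang2.

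These sums mix vessel gates whose shares changed between the libraries. Of the *Selp* UMIs of all ECs, *Ackr1*+ cells gave 87.7, 88.3, 78.5 and 82.1% in the mIgG1, Ang2 Ab, Ctrl and EC-Ang2 libraries, and of the *Sele* UMIs 76.7, 79.1, 65.2 and 73.1%. Of the *Vcam1* UMIs they gave 71.3, 70.02, 60.5 and 69.3%, while they held 44.8, 30.4, 19.4 and 43.1% of all EC UMIs. For *Icam2*, their part (16.6 to 37.9%) was below their share of the UMIs in each of the 4 libraries. The few ECs kept out of the gates gave 9.19 to 17.9% of the *Selp* UMIs.

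**Figure D3:**
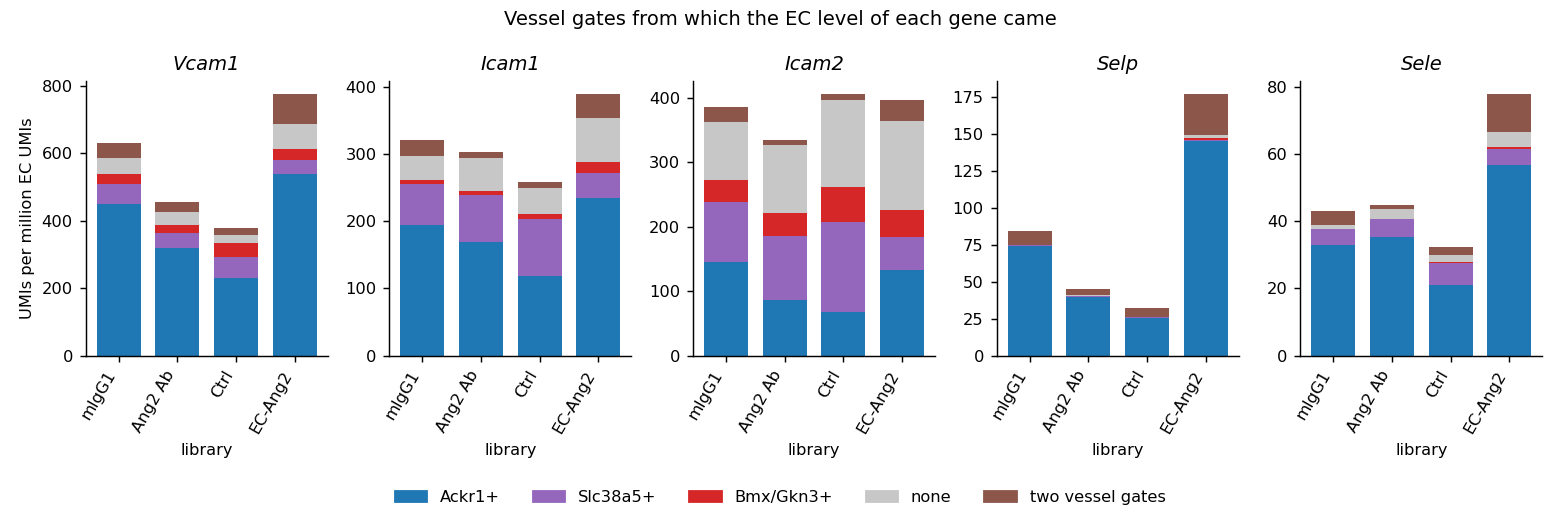
UMIs of 5 members per 1000000 UMIs of all ECs, stacked by the vessel gate of the cell, for the 4 libraries. The part from *Ackr1*+ cells is the largest for *Vcam1*, *Selp* and *Sele* in each library, and for *Vcam1* it goes from 230 CPM in Ctrl to 538 CPM in EC-Ang2.

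Each gate was then given the same weight in both libraries of a pair, its part of their pooled UMIs, and the ECs kept out of the gates were not used. The differences that had been past 1.5-fold over all ECs were then smaller, as was that of *Vcam1* with Ang2 Ab. *Vcam1* was at −0.13 and *Selp* at −0.33 for Ang2 Ab against mIgG1, and *Vcam1* at 0.33, *Icam1* at 0.20, *Sele* at 0.47 and *Selp* at 1.41 for EC-Ang2 against Ctrl. *Selp* alone stayed past 1.5-fold, in the second comparison. Other members moved otherwise. For Ang2 Ab, *Sele* went from 0.05 to 0.57, *Icam1* turned from −0.08 to 0.17, *Icam2* went from −0.21 to −0.25 and *Alcam* from −0.33 to −0.23. For EC-Ang2, *Icam2* turned from −0.03 to 0.07 and *Alcam* went from −0.09 to −0.29. *Ackr1* itself, which sets the gate, was at 2143, 1745, 1204 and 2574 CPM over all ECs. The gates were set on UMIs not scaled to depth, before any thinning. Median UMIs of ECs were 4840, 3639, 4279.5 and 6074.5 in the mIgG1, Ang2 Ab, Ctrl and EC-Ang2 libraries. In each pair, the library with the deeper ECs also had the larger *Ackr1*+ share. Whether the gate shares follow the number of venular cells, their *Ackr1* level or depth was not tested.

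**Figure D4:**
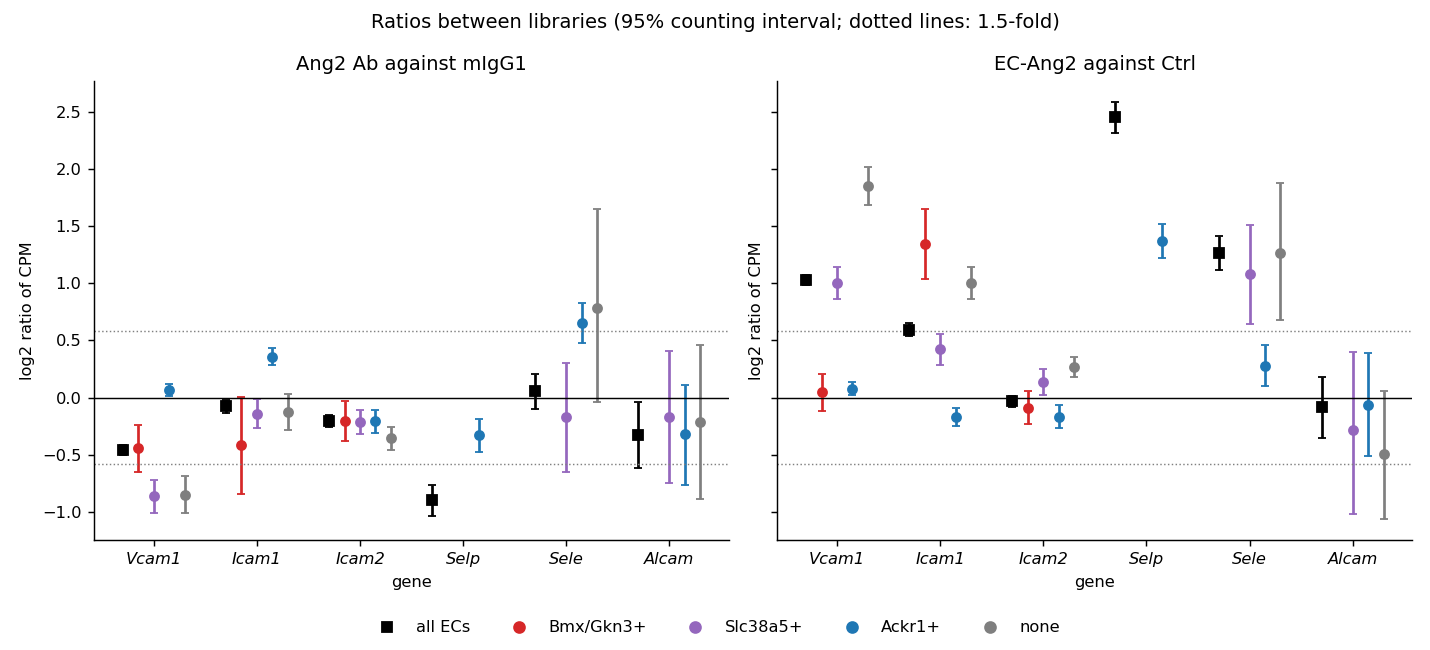
Log2 ratio of levels between libraries within each vessel gate, for members with at least 50 UMIs in the pair, with 95% counting intervals; dotted lines mark 1.5-fold. *Vcam1* lies near 0 in *Ackr1*+ cells and away from it in *Slc38a5*+ and ungated cells, while *Selp* has a value in *Ackr1*+ cells alone.

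Within *Ackr1*+ cells the summed level of *Vcam1* differed little: its log2 ratio was 0.07 [0.01 to 0.12] for Ang2 Ab against mIgG1 and 0.08 [0.02 to 0.13] for EC-Ang2 against Ctrl. It was 1.82-fold lower with Ang2 Ab in *Slc38a5*+ cells (−0.87 [−1.01 to −0.72]), 1.81-fold lower in ungated cells (−0.85 [−1.01 to −0.69]) and 1.36-fold lower in *Bmx*/*Gkn3*+ cells (−0.44 [−0.65 to −0.24]). In EC-Ang2 it was 2.01-fold higher in *Slc38a5*+ cells (1.01 [0.87 to 1.15]), 3.62-fold higher in ungated cells (1.86 [1.69 to 2.02]) and at 0.05 [−0.11 to 0.21] in *Bmx*/*Gkn3*+ cells. *Slc38a5*+ and ungated cells, where *Vcam1* was lowest, were thus where it differed most between the libraries of each pair. The same gates also differed between the controls: mIgG1 was above Ctrl by 0.59 in *Slc38a5*+ and by 1.68 in ungated cells, and at −0.24 in *Ackr1*+ cells. *Ackr1*, whose cutoff bounds these gates, differed in the same directions in *Slc38a5*+ and ungated cells. Its log2 ratios there were −0.36 and −0.72 with Ang2 Ab, 1.01 and 1.54 in EC-Ang2, and 1.24 and 1.33 between the controls. In EC-Ang2, free RNA was estimated at 99.0 of 113 CPM and 94.0 of 97.1 CPM of *Ackr1* in these gates. That estimate can be too high. In *Bmx*/*Gkn3*+ cells it gave 94.1 CPM of *Ackr1* in EC-Ang2 and 32.4 CPM in Ctrl, where 47.6 and 16.8 CPM were measured. In mIgG1 and Ang2 Ab it gave 45.2 and 38.2 CPM there, with 41.0 and 38.3 CPM measured. The part of free RNA in these *Ackr1* levels is thus not settled. Whether the gates hold like cells in each library, and whether the ratios differ between gates, was not tested.

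*Icam1* gave another picture. Ang2 Ab against mIgG1, its log2 ratio was 0.36 [0.28 to 0.44] in *Ackr1*+ cells and −0.14 [−0.27 to −0.01] in *Slc38a5*+ cells. It was −0.42 [−0.84 to 0.01] in *Bmx*/*Gkn3*+ cells and −0.13 [−0.29 to 0.03] in ungated cells, and no gate was past 1.5-fold. EC-Ang2 against Ctrl, it was 2.54-fold higher in *Bmx*/*Gkn3*+ cells (1.34 [1.04 to 1.66]), 2.01-fold higher in ungated cells (1.00 [0.86 to 1.15]), 1.34-fold higher in *Slc38a5*+ cells and 1.13-fold lower in *Ackr1*+ cells (−0.17 [−0.25 to −0.09]). In EC-Ang2 against Ctrl, the arterial and ungated cells, where *Icam1* was lowest, had the larger ratios. In *Ackr1*+ cells, where it was highest, the libraries of each pair lay within 1.5-fold.

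*Selp* could be compared only in *Ackr1*+ cells. It was 2.59-fold higher there in EC-Ang2 than in Ctrl (1.37 [1.22 to 1.52]) and 1.26-fold lower with Ang2 Ab than with mIgG1 (−0.33 [−0.48 to −0.19]), beside a ratio of 0.34 between the controls. *Sele* in the same cells was 1.58-fold higher with Ang2 Ab (0.66 [0.48 to 0.83]) and 1.21-fold higher in EC-Ang2 (0.28 [0.10 to 0.46]), but 1.47-fold lower in mIgG1 than in Ctrl. Both selectins thus differed in *Ackr1*+ cells with Ang2 Ab, in opposite directions. In *Slc38a5*+ and ungated cells *Sele* was 2.11-fold and 2.40-fold higher in EC-Ang2. *Icam2* was at −0.21 in the *Bmx*/*Gkn3*+, *Slc38a5*+ and *Ackr1*+ gates and at −0.36 in ungated cells with Ang2 Ab, the same direction in 4 of 4 gates, and between −0.17 and 0.27 in EC-Ang2.

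Counted over the gates, Ang2 Ab against mIgG1, 0 of 3 members with enough UMIs were past 1.5-fold in *Bmx*/*Gkn3*+ cells (10.4% of genes were), 1 of 5 in *Slc38a5*+ cells (7.51%), 1 of 6 in *Ackr1*+ cells (8.29%) and 2 of 5 in ungated cells (7.75%). EC-Ang2 against Ctrl, the counts were 1 of 3 (15.8%), 2 of 5 (13.3%), 1 of 6 (13.1%) and 3 of 5 (12.4%). With so few members, these counts are a description.

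Among the leukocytes, *Icam1* in myeloid cells was 2.72-fold lower in EC-Ang2 than in Ctrl (log2 −1.44 [−1.52 to −1.36]), opposite to its direction in ECs, but it was as far below Ctrl in mIgG1 (−1.50), and 29.5% of genes were past 1.5-fold in these cells. It was 1.29-fold higher with Ang2 Ab. *Vcam1* in myeloid cells was 1.52-fold lower with Ang2 Ab (9.93% of genes were past 1.5-fold) and 1.43-fold lower in EC-Ang2. Free RNA was estimated at 11.8 of the 18.4 CPM in EC-Ang2 and at 7.66 of the 26.3 CPM in Ctrl. In neutrophils, *Vcam1* was at 42.6 CPM in Ctrl and 4.93 to 17.8 CPM in the other libraries. These lower values came from 1, 7 and 16 UMIs in mIgG1, Ang2 Ab and EC-Ang2. Free RNA there was estimated at 11.4, 6.63 and 14.9 CPM. *Selp* was 3.47-fold higher in the myeloid cells of EC-Ang2, where free RNA was estimated at 5.04 of the 6.16 CPM.

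Single cells were read as well. To compare cells of unequal depth, each was thinned to 2000 UMIs. *Vcam1* was then found in 35.6, 20.5, 17.7 and 37.3% of ECs in the mIgG1, Ang2 Ab, Ctrl and EC-Ang2 libraries (50.2, 27.9, 25.0 and 52.5% without thinning). In *Ackr1*+ cells it was found in 68.1, 59.5, 70.3 and 72.2%. With Ang2 Ab this share was thus below that with mIgG1, although the summed level in these cells was not lower. The share of *Ackr1*+ cells with 5 or more *Vcam1* UMIs after thinning went the other way. It was 13.0% with mIgG1 and 17.3% with Ang2 Ab. *Selp* was found in 4.10, 2.67, 1.45 and 8.88% of ECs (9.74, 5.38, 3.25 and 18.2% without thinning) and in 12.7, 12.4, 9.91 and 26.3% of *Ackr1*+ cells. T cells, which should lack both (median 3910.5 to 4638 UMIs, against 3639 to 6074.5 in ECs), held a *Vcam1* UMI in 1.53 to 2.54% and a *Selp* UMI in 0 to 1.10% of cells. Single ECs reached 77 to 107 *Vcam1* UMIs and 27 to 85 *Selp* UMIs. Of *Vcam1*, *Icam1*, *Icam2*, *Selp* and *Sele*, at least 3 were detected in 11.04, 7.72, 6.37 and 15.5% of ECs. That share was 28.0, 27.3, 32.7 and 36.0% in *Ackr1*+ cells, against at most 9.94% in any other gate.

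Members were found together more often than their separate shares would give. *Vcam1* and *Icam1* shared 280 to 432 ECs a library, 1.47 to 2.21 times the number expected, and *Vcam1* and *Selp* shared 2.06 to 3.40 times. For *Vcam1* with *Sele* the ratio was 1.79 to 3.64 and for *Icam1* with *Selp* 1.69 to 2.31. *Icam2* did not join them, with ratios of 0.73 to 1.07 for its pairs with *Vcam1*, *Icam1*, *Selp* and *Sele*. Computed within vessel gates, the ratios fell to 1.18 to 1.41 for *Vcam1* with *Icam1* and 1.02 to 1.26 for *Vcam1* with *Selp*, so the excess of these pairs was smaller among cells of the same gate. *Selp* and *Sele* were found together in 28, 23, 8 and 44 ECs, and within gates in 2.61, 2.11, 1.36 and 1.38 times the number expected in the mIgG1, Ang2 Ab, Ctrl and EC-Ang2 libraries. In mIgG1 and Ang2 Ab this pair kept the largest excess within gates, on few cells. These ratios are descriptions of cells from 1 suspension each and carry no test.

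**Figure D5:**
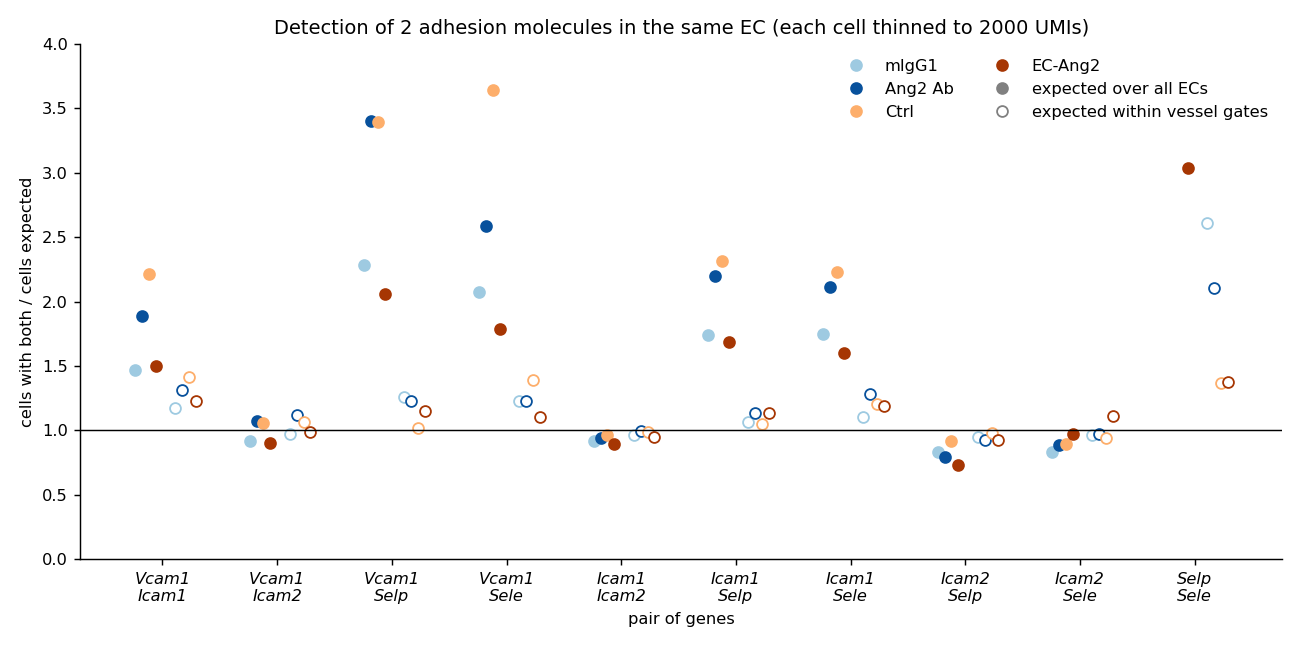
Number of ECs in which both members of a pair were detected, divided by the number expected from their separate shares, per library after thinning to 2000 UMIs; filled points are over all ECs and open points within vessel gates. Pairs of *Vcam1*, *Icam1* and the selectins lie above 1 over all ECs and nearer 1 within gates, and pairs with *Icam2* lie near or below 1.

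Other genes of the adhesion cascade were read from 6 fixed lists, whose counts stand beside the shares of all genes called in the same comparisons, 37.4% for *Ackr1*+ against *Bmx*/*Gkn3*+, 26.7% for *Ackr1*+ against *Slc38a5*+ and 21.6% for *Slc38a5*+ against *Bmx*/*Gkn3*+ cells. Of the cytokine receptor and NF-kB genes, 13 of 16 were higher and 2 lower in *Ackr1*+ than in *Bmx*/*Gkn3*+ cells, 11 were higher and 1 lower than in *Slc38a5*+ cells, and 7 were higher and 1 lower in *Slc38a5*+ than in *Bmx*/*Gkn3*+ cells. *Il1r1*, the receptor of interleukin 1, was 2.17 higher on the log2 scale in *Slc38a5*+ than in *Bmx*/*Gkn3*+ cells (adjusted p = 2.12e-06). Of the junction and diapedesis genes, 9 of 11 were lower and 0 higher in *Ackr1*+ than in *Bmx*/*Gkn3*+ cells, led by *Plvap*, the diaphragm protein of fenestrae (−3.27, adjusted p = 1.71e-05). This list shares *Pecam1*, *Cdh5*, *Cldn5*, *Ocln* and *Esam* with the endothelial marker list, which was also lower in *Ackr1*+ cells (above). Of the chemokine genes, 7 of 12 were higher and 2 lower, and *Ackr1* itself is a member of that list. *Ccl19* (5.51, adjusted p = 5.00e-10) and *Cxcl9* (4.61, adjusted p = 8.32e-07) were higher and *Cxcl12* lower (−2.64, adjusted p = 3.56e-16). The means of *Ccl19* and *Cxcl9* over the 4 libraries were 46.5 and 150.3 CPM in *Ackr1*+ cells. These means hide wide spread, as *Cxcl9* over all ECs was at 5.84 CPM in Ctrl and 155 CPM in EC-Ang2. Of the selectin ligand genes, 4 of 8 were higher and 2 lower, and *Gcnt1*, an enzyme that builds branched O-glycans, was 4.71 lower (adjusted p = 1.17e-09). The Weibel-Palade body genes, whose store also holds P-selectin, split into 2 higher and 2 lower of 7.

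Between the libraries, over all ECs and so with the changed gate shares, 15.8% of genes were past 1.5-fold for EC-Ang2 against Ctrl and 7.28% for Ang2 Ab against mIgG1. Of the chemokine genes, 9 of 12 were more than 1.5-fold higher and 2 lower in EC-Ang2 than in Ctrl, with a median log2 ratio of 1.199 against −0.03 over all genes. *Cxcl9*, which draws CXCR3+ T cells, was at 155 against 5.84 CPM (log2 4.73), and *Cxcl12* was lower at 187 against 799 CPM (−2.10). Between the controls, 6 of 11 were higher in mIgG1 and 3 lower, with a median of 0.83, where 13.5% of genes were past 1.5-fold. Within gates, the EC-Ang2 median was 0.06 in *Bmx*/*Gkn3*+ cells (2 higher and 2 lower of 5), 0.45 in *Slc38a5*+ cells (3 and 1 of 8), 1.13 in *Ackr1*+ cells (6 and 1 of 10) and 1.13 in ungated cells (6 and 1 of 9). The NF-kB list had 5 of 16 genes higher and none lower in EC-Ang2, a median of 0.43. With Ang2 Ab, 2 of 11 chemokine genes were higher and 2 lower than with mIgG1. *Ccl7* was among the higher, at 3.30 against 1.06 CPM. The lower were *Ccl19* at 10.4 against 50.4 CPM and *Ccl5* at 53.7 against 113 CPM. None of the 16 NF-kB genes was past 1.5-fold with Ang2 Ab. *Klf2*, a transcription factor that holds adhesion molecules low in resting endothelium, was at 1756 CPM in EC-Ang2 against 3568 CPM in Ctrl (−1.02), and the junction list had 1 of 11 genes higher and 1 lower there. The angiopoietin receptor list holds *Tek*, *Tie1*, *Itga5*, *Itgb1*, *Ptprb*, *Foxo1*, *Klf2* and *Klf4*, and so not receptors alone. Of these, 1 of 8 genes was higher and 2, with *Klf2* among them, were lower in EC-Ang2, and none of 8 was past 1.5-fold with Ang2 Ab.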

How the data were processed

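Cells were sorted from SC suspensions and made into 10x Genomics 3′ (version 2 chemistry) libraries. Per the labels, the authors processed the reads with Cell Ranger 2.1.1 (mm10) and analysed them with Seurat 2.3.4, and they deposited unfiltered UMI counts per gene and barcode. Library totals were 52084739 to 66631583 UMIs. Gene positions are those of GENCODE on GRCm38.

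From these counts, barcodes with at least 2000 UMIs were kept and assigned to classes by summed marker counts. Barcodes with markers of another class, which include doublets, were left out (750 to 1304 a library), and Scrublet scores were an alternative. Mitochondrial and cycling cells, which the authors removed, were kept, and leaving them out was an alternative. Trac and Trbc2 of the T cell list were not used. The *Ackr1* threshold was set at 5 UMIs on markers alone, because free RNA put *Ackr1* UMIs in cells of every class. Free RNA was estimated from the make-up of barcodes with 10 to 100 UMIs. The fits used edgeR 4.0.16 (R 4.3.3) with TMM factors, filterByExpr, library as a term and an adjusted p under 0.05; DESeq2 1.42.0 was an alternative. On simulated counts, 96.5% of 200 genes changed 2-fold were recovered for *Ackr1*+ against *Bmx*/*Gkn3*+ cells (10943 genes) and 85.0% for ECs against mural cells (12120 genes). These counts came from a pooled profile with a dispersion set in advance. Only genes well counted in the smallest sum were changed, so the rates do not speak for members with low counts. A gene past 1.5-fold between libraries had at least 50 UMIs in the pair. Ratios have exact conditional binomial intervals, and levels exact Poisson intervals. The members, and of each gene list the 3 genes with the largest changes in each direction, could be named, as could the 3 genes most like each member; those shown are among them. Members and lists were chosen with earlier results of these data known. Other alternatives were other cell filters, scalings, thinning and leaving out each library.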

Additional observations from a re-analysis of the deposited data

Results flagged for a closer look

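Ratios of opposite sign between vessel gates, each with an interval that leaves out 0, were found for 3 members; the difference between gates was not tested, since each condition has 1 library. For Ang2 Ab against mIgG1, the log2 ratio of *Vcam1* was −0.44 in *Bmx*/*Gkn3*+, −0.87 in *Slc38a5*+ and −0.85 in ungated ECs and 0.07 in *Ackr1*+ ECs, and that of *Icam1* was −0.14 in *Slc38a5*+ and 0.36 in *Ackr1*+ ECs. For EC-Ang2 against Ctrl, *Icam1* was at 1.34 in *Bmx*/*Gkn3*+, 0.42 in *Slc38a5*+ and 1.00 in ungated ECs and at −0.17 in *Ackr1*+ ECs, and *Icam2* was at 0.14 in *Slc38a5*+ and 0.27 in ungated ECs and at −0.17 in *Ackr1*+ ECs. The opposite values in *Ackr1*+ ECs were all under 1.5-fold.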

How the results depend on the processing

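Of the counts of members past a threshold, 89 of the values under other settings were within 1.5 times the reported count and 4 were not. Of the remaining values under other settings, 494 were recorded as the same, 36 as moved and 10 as weaker. With the same vessel gate weights in both libraries of a pair, a setting chosen after seeing the data, 0 members (1 in the report) were past 1.5-fold for Ang2 Ab against mIgG1 and 1 (4 in the report) for EC-Ang2 against Ctrl. Pairs of members found together in over 1.5 times the expected number of ECs in all 4 libraries numbered 4 in the report, 8 without thinning and 0 within vessel gates. No value past a threshold changed sign. Among values not past one, 10 changed sign in another setting, 7 of them ratios between libraries. Among these was *Icam1* for Ang2 Ab, from −0.08 to 0.17 with the same gate weights in both libraries. The EC-Ang2 count was 3, *Icam1* falling below 1.5-fold, with a minimum of 3000 UMIs, with both *Cldn5* and *Cdh5* required, without high Scrublet scores and without shared barcodes. Leaving out each library in turn kept 6 members called *Ackr1*+ against *Bmx*/*Gkn3*+, 4 *Slc38a5*+ against *Bmx*/*Gkn3*+, 6 *Ackr1*+ against *Slc38a5*+, 6 against myeloid cells, and 5 to 6 against mural cells, where *Alcam* missed the threshold in 6 settings (adjusted p 0.0522 to 0.0874). Without library as a term, *Icam2* *Ackr1*+ against *Slc38a5*+ had an adjusted p of 0.162, and the genes called fell from 2402 to 1200 *Slc38a5*+ against *Bmx*/*Gkn3*+ and from 2979 to 1155 *Ackr1*+ against *Slc38a5*+. After thinning, 2326, 1436 and 1577 genes were called in the 3 gate comparisons instead of 4172, 2402 and 2979. No paired analysis was possible because each condition has 1 library and the replicate number is only a name. The 18 to 31 mural cells a library limit what could be seen there.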
